A study of Vitis vinifera with 12 samples.

Results

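Plasma membrane aquaporins, the PIP genes, were followed through fruit peels and young leaves of 3 grape cultivars. They were taken as every row whose name holds PIP1 or PIP2 with an isoform number, which gave 6 rows of 25210 in the peel table and the same 6 names of 25253 in the leaf table. There were 3 PIP1 rows (PIP1;1, PIP1;2 and PIP1;3) and 3 PIP2 rows (PIP2;1, PIP2;2 and PIP2;3). Members carried under a gene identifier alone would be missed, so the sums below cover these named rows only. The groups were peel of Bangalore blue, Red globe and Dilkhush and young leaf of the same cultivars, all labelled Vitis vinifera, with 2 libraries in each group and 12 in all. The series describes the cultivars as carrying different amounts of anthocyanin, the red to blue pigment of grape skin. The labels name no treatment, plant age or berry stage, and do not say whether the 2 libraries of a group came from separate plants.

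Aquaporins are channel proteins that let water cross membranes, and the PIP family sits mainly in the plasma membrane. The PIP1 and PIP2 subfamilies are close in sequence. PIP2 proteins are strong water channels when made alone in frog oocytes, whereas many PIP1 proteins show little activity there unless a PIP2 partner is present, with which they assemble and reach the cell surface. In leaves and fruit, PIP channels take part in moving water between cells, and their activity is also set after transcription, which transcript levels do not show.

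Each cultivar and tissue had 1 deposited column, in RPKM, a read density corrected for transcript length and for the size of the library. RPKM is per length, so rows can be set beside each other within a column, and peel and leaf were normalized separately, so levels are compared between cultivars within a tissue. No value has a replicate error, no p-value is given, and neighbours in any order of cultivars below cannot be set against a spread between replicates. A row was called higher or lower where log2(RPKM + 1) differed by at least 2, which is 4-fold, with at least 10 RPKM in the higher cultivar. In whole tissue, fewer cells that make a transcript and less transcript per cell cannot be told apart. Median RPKM over all rows was 2.63 to 3.06 in the peel columns and 5.83 to 6.04 in the leaf columns, and the depth behind them is unknown. Transfer RNA rows held 33.6% of all RPKM in the Red globe peel column, more than the 13.9% of Bangalore blue and the 20.7% of Dilkhush peel. RPKM is per length, so this is not their share of reads, which is unknown. Reads taken by such rows lower every other RPKM of a column, here by an unknown amount. Of the 12 ripening or pigment rows chosen to mark peel, none was at 0 in a peel column, and their summed level was 15109 to 22244 RPKM in peel and 458 to 828 RPKM in leaf. Those sums are carried by a few GRIP rows, and in Dilkhush the pigment genes UFGT and GST4 were lower in peel, at 2.09 and 9.86 RPKM, than in leaf, at 7.87 and 53.2 RPKM. The pigment row LOC100853472 went the other way in Dilkhush, at 22.5 RPKM in peel and 0.58 RPKM in leaf. GRIP55 in Bangalore blue was 50.8 RPKM in peel and 76.9 RPKM in leaf. The GRIP4 row also carries the name MRIP1 in peel, and the GRIP61 row the name LOC100245649, which the leaf rows do not. Part of the peel level of those rows may therefore come from another gene. Since the tissues were normalized separately, marker levels are only roughly comparable between them. The 4 leaf markers, PSBP1, PSBP2, CHLH and NDHM, whose proteins all work in the chloroplast, summed to between 699.8 and 2812 RPKM in leaf and between 282 and 558 RPKM in peel.

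Every PIP row was highest in Dilkhush peel among the 3 peels. Over all peel rows with at least 10 RPKM, 41.6% were highest in Dilkhush, so this order is common there. The lowest cultivar split the family in a way that did not follow the subfamilies. PIP1;2, PIP1;3 and PIP2;1 were lowest in Red globe peel, while PIP1;1, PIP2;2 and PIP2;3 were lowest in Bangalore blue peel. Of all peel rows at that level, 37.8% were lowest in Red globe and 34.4% in Bangalore blue, so either place is common. The place of PIP1;1 rests on 0.15 against 0.18 RPKM, and with it set aside only PIP2 was split. The orders of the PIP rows were the same after scaling columns to equal medians or to an equal total without transfer RNA. With quantile normalization 1 of them changed, since PIP1;1, which was below 1 RPKM in Bangalore blue and Red globe peel, was then lowest in Red globe.

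**Figure D1:**
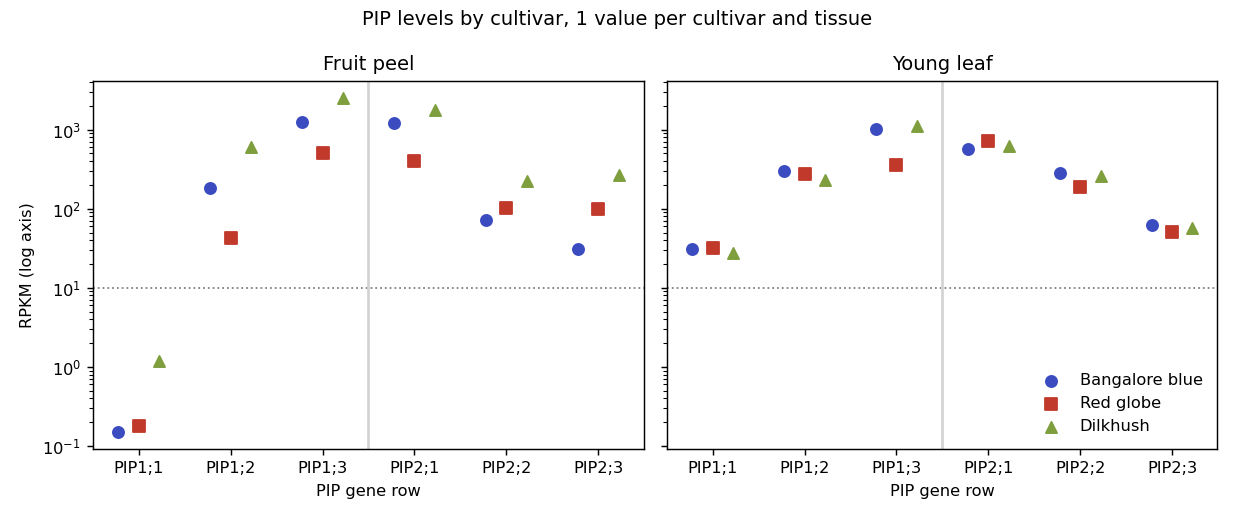
RPKM (log axis) of the 6 PIP rows in Bangalore blue, Red globe and Dilkhush, in fruit peel (left panel) and young leaf (right panel), with 1 point per cultivar and a dotted line at 10 RPKM. In peel every Dilkhush triangle is the highest of its row, and in leaf the points of a row lie close together except for PIP1;3.

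Among the PIP1 rows, PIP1;3 was the most abundant. In peel it was 1247 RPKM in Bangalore blue, 511 RPKM in Red globe and 2529 RPKM in Dilkhush. Its rank among the 25210 rows was 50 in the Bangalore blue column, 114 in the Red globe column and 30 in the Dilkhush column. Red globe minus Dilkhush was -2.31 on the log2(RPKM + 1) scale, which was called lower, while Bangalore blue minus Dilkhush was -1.02 and Bangalore blue minus Red globe 1.29, neither of them a call. In leaf this row was 1011 RPKM in Bangalore blue, 359.8 RPKM in Red globe and 1109 RPKM in Dilkhush. Red globe was therefore the low cultivar in both tissues, although its leaf log2 difference from Dilkhush, -1.62, stayed short of a call.

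PIP1;2 had the widest range of the 6 rows in peel. Its level was 184 RPKM in Bangalore blue, 43.1 RPKM in Red globe and 609 RPKM in Dilkhush peel. Red globe was called lower than Dilkhush peel (log2 difference -3.79) and Bangalore blue was called higher than Red globe peel (2.07), with Bangalore blue minus Dilkhush at -1.72. Leaf values were close, at 303 RPKM in Bangalore blue, 273 RPKM in Red globe and 230.0 RPKM in Dilkhush. This row also carries the gene identifier LOC100265390, its neighbour in the RefSeq gene table of assembly GCF_030704535.1, so part of the reads may come from that gene.

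PIP1;1 was nearly silent in peel, at 0.15 RPKM in Bangalore blue, 0.18 RPKM in Red globe and 1.20 RPKM in Dilkhush. It was the 1 row of the family under 10 RPKM in all peels, so it could not be called there. In leaf it reached 30.8 RPKM in Bangalore blue, 31.6 RPKM in Red globe and 27.2 RPKM in Dilkhush, the narrowest range of any PIP row. It was the lowest of the 6 rows in every column of both tissues.

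Of the PIP2 rows, PIP2;1 dominated. Its peel level was 1229.6 RPKM in Bangalore blue, 401 RPKM in Red globe and 1776 RPKM in Dilkhush. Red globe was called lower than Dilkhush (log2 difference -2.15), close to the 4-fold limit, with Bangalore blue minus Dilkhush at -0.53 and Bangalore blue minus Red globe at 1.62. In leaf Red globe was the highest, with 565 RPKM in Bangalore blue, 719 RPKM in Red globe and 614 RPKM in Dilkhush, and Dilkhush was above Bangalore blue as in peel. Those leaf values span a ratio of 1.27 between the highest and the lowest cultivar.

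PIP2;3 put Bangalore blue, not Red globe, at the bottom in peel. It was 31.2 RPKM in Bangalore blue, 99.6 RPKM in Red globe and 269 RPKM in Dilkhush peel. Bangalore blue was called lower than Dilkhush (log2 difference -3.07), whereas Red globe minus Dilkhush was -1.42 and was not called. In leaf the same row was 61.8 RPKM in Bangalore blue, 50.2 RPKM in Red globe and 56.4 RPKM in Dilkhush.

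PIP2;2 had the same order of cultivars in peel, with 71.3 RPKM in Bangalore blue, 103 RPKM in Red globe and 225 RPKM in Dilkhush, and no call in any comparison. Between Bangalore blue and Red globe peel these minor PIP2 rows went the other way from the dominant row, with log2 differences of -0.52 here and -1.64 for PIP2;3. Leaf levels of the row were 286 RPKM in Bangalore blue, 186 RPKM in Red globe and 263 RPKM in Dilkhush. The lead of this row over the other minor PIP2 row was smaller in peel, where Dilkhush had them in the other order. In leaf PIP2;2 was 4.62 times PIP2;3 in Bangalore blue, 3.70 times in Red globe and 4.65 times in Dilkhush. In peel it was 2.28 times the other row in Bangalore blue, 1.03 times in Red globe and 0.84 times in Dilkhush.

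A further row is named PIP2 with no isoform number and so was not counted among the 6. RefSeq has a gene of that symbol apart from the numbered PIP2 genes, but also gives PIP2 as a synonym of PIP2;1 and PIP2;3. In peel the unnumbered row was 0.37 RPKM in Bangalore blue, 3.33 RPKM in Red globe and 8.68 RPKM in Dilkhush, the same order of cultivars as the minor PIP2 rows. In leaf it was 18.9 RPKM in Bangalore blue, 19.7 RPKM in Red globe and 37.2 RPKM in Dilkhush. PIP sequences are alike, and how reads that match several members were shared out is unknown here, so values of close copies are uncertain.

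By comparison, Red globe against Dilkhush peel had the most calls, with 3 of the 5 PIP rows at 10 RPKM called lower (PIP1;2, PIP1;3 and PIP2;1). Over all rows at that level 3.35% were called lower. With quantile normalization only the first of these was still called, since the other 2 each moved to -1.90. With an equal total without transfer RNA the PIP2 row of the 3 stood at -1.98, just short of a call. In Bangalore blue against Dilkhush peel 1 of 5 was called lower, PIP2;3, where 3.73% of all rows were. In Bangalore blue against Red globe peel 1 of 5 was called higher, PIP1;2, where 2.39% of all rows were. The comparisons share columns, so their counts are not independent of each other.

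The median log2 difference of the 6 PIP rows was -1.33 for Bangalore blue against Dilkhush peel, where all rows at 10 RPKM had a median of -0.09. For Red globe against Dilkhush peel it was -1.78, with a median of -0.12 over all rows. Bangalore blue against Red globe peel had 3 PIP rows above 0 and 3 below, with a PIP median of 0.62 and a median over all rows of 0.03. These PIP medians and counts include PIP1;1, which was under 10 RPKM in all peels. Over the 5 PIP rows at 10 RPKM the medians were -1.65 and -2.15 against Dilkhush for Bangalore blue and Red globe. Bangalore blue against Red globe was then 1.29. The leaf markers had the same direction as the PIP rows against Dilkhush peel. All 4 were highest in Dilkhush peel and 3 were lowest in Red globe peel, and they summed to 406 RPKM in Bangalore blue, 282 RPKM in Red globe and 558 RPKM in Dilkhush. Of all peel rows at 10 RPKM, 41.6% were highest in Dilkhush and 37.8% were lowest in Red globe. The marker NDHM was under 10 RPKM in all peels. The part of the leaf markers in the PIP differences was not tested.

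**Figure D2:**
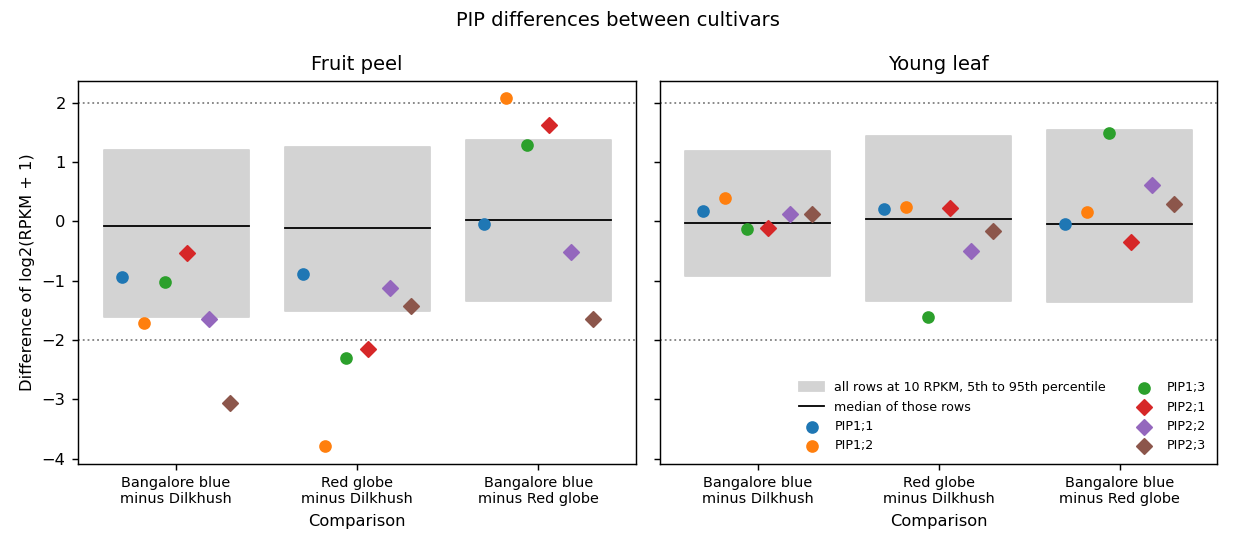
Difference of log2(RPKM + 1) for the 6 PIP rows (circles PIP1, diamonds PIP2) in the 3 comparisons of fruit peel (left) and young leaf (right). Grey blocks span the 5th to the 95th percentile of all rows at 10 RPKM, black lines are their medians, and dotted lines mark the size of 2 used for a call. The calls are all in peel, with PIP1;2 at -3.79 for Red globe minus Dilkhush the farthest from 0.

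No PIP row was called in leaf, of 6 at 10 RPKM in each comparison. Over all rows 4.05% were called either way for Bangalore blue against Dilkhush, 5.3% for Red globe against Dilkhush and 5.21% for Bangalore blue against Red globe. With shares that small, 0 calls among 6 rows does not set the PIP rows apart. Their medians were 0.13, 0.02 and 0.22 in those comparisons. Between Bangalore blue and Dilkhush leaf all 6 log2 differences lay between -0.13 and 0.40.

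The spread over the 3 cultivars can be read against that of other rows of the same table. In peel the 5 PIP rows at 10 RPKM had log2 ranges, the highest minus the lowest cultivar, of 1.65 to 3.79, where the median row had 0.65. They were wider than 86.2% to 97.5% of the 10018 rows at that level. In leaf 5 of the 6 had ranges of 0.21 to 0.62, all under the median of 0.64 over 12060 rows, and they were wider than 9.5% to 48.1% of rows. PIP1;3 stood apart from the rest in leaf, with a range of 1.62, wider than 87.3% of rows.

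**Figure D3:**
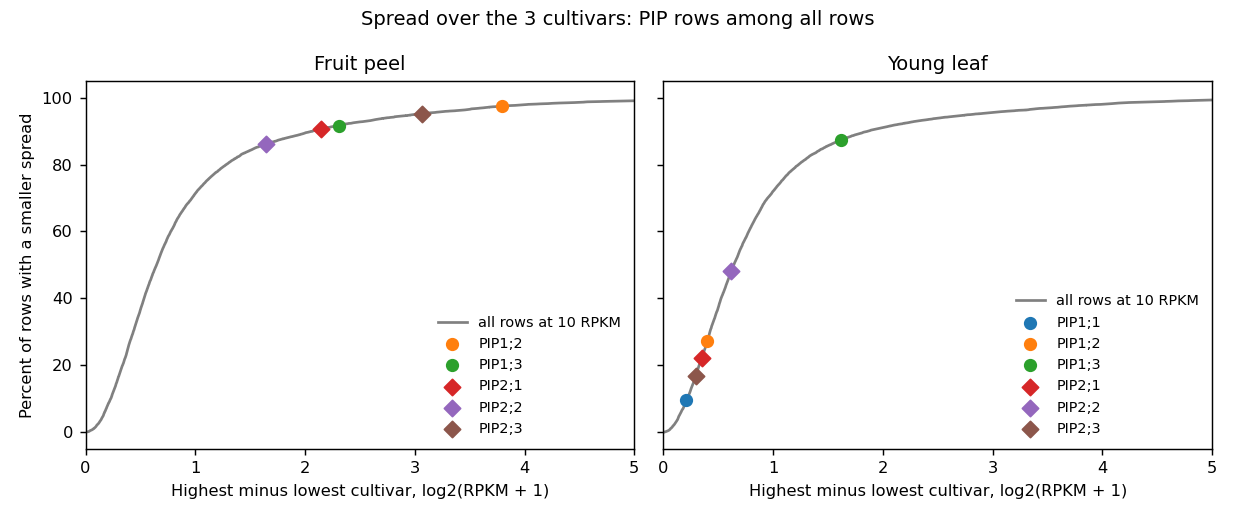
Percent of all rows at 10 RPKM (y axis) whose spread over the 3 cultivars, the highest minus the lowest log2(RPKM + 1) on the x axis, is smaller, in fruit peel (left) and young leaf (right). The PIP rows at 10 RPKM lie on the upper part of the curve in peel, from 86.2% to 97.5%, and on the lower part in leaf except for PIP1;3 at 87.3%. PIP1;1, under 10 RPKM in all peels, is not shown in peel.

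Summed over its 3 rows, PIP1 came to 1431 RPKM in Bangalore blue, 554 RPKM in Red globe and 3139 RPKM in Dilkhush peel. PIP2 came to 1332 RPKM in Bangalore blue, 603 RPKM in Red globe and 2271 RPKM in Dilkhush peel. Both subfamilies were thus lowest in Red globe and highest in Dilkhush. Red globe minus Dilkhush was -2.50 for summed PIP1 and -1.91 for summed PIP2 on the log2(RPKM + 1) scale. Bangalore blue minus Dilkhush was -1.13 for PIP1 and -0.77 for PIP2, and Bangalore blue minus Red globe was 1.37 for PIP1 and 1.14 for PIP2. The difference of the PIP1 sum was the larger in size in all 3 peel comparisons, by 0.36 for Bangalore blue against Dilkhush, 0.59 for Red globe against Dilkhush and 0.23 for Bangalore blue against Red globe. The median over the 3 rows of a subfamily did not follow this throughout. It was -1.02 for PIP1 and -1.65 for PIP2 in Bangalore blue minus Dilkhush, -2.31 for PIP1 and -1.42 for PIP2 in Red globe minus Dilkhush, and 1.29 for PIP1 and -0.52 for PIP2 in Bangalore blue minus Red globe. Without PIP1;1, under 10 RPKM in peel, the PIP1 medians in those comparisons were -1.37, -3.05 and 1.68. The sums rest mainly on PIP1;3, at 80.6% to 92.2% of PIP1, and on PIP2;1, at 66.5% to 92.3% of PIP2 in the peel columns.

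In leaf the subfamilies parted in Red globe. PIP1 summed to 1345 RPKM in Bangalore blue, 664 RPKM in Red globe and 1366 RPKM in Dilkhush leaf. PIP2 summed to 913 RPKM in Bangalore blue, 955 RPKM in Red globe and 933 RPKM in Dilkhush leaf. For summed PIP1, Red globe minus Dilkhush was -1.04 and Bangalore blue minus Red globe was 1.02. The PIP2 log2 differences in leaf were -0.03 for Bangalore blue minus Dilkhush, 0.03 for Red globe minus Dilkhush and -0.07 for Bangalore blue minus Red globe, too small to give a direction. The low PIP1 sum of Red globe leaf came from PIP1;3, which made up 75.2% of PIP1 for Bangalore blue, 54.2% for Red globe and 81.2% for Dilkhush leaf. The other PIP1 rows were not lowest in Red globe leaf. All 4 leaf markers were also lowest in Red globe leaf, as were 38.2% of all leaf rows with at least 10 RPKM. The markers summed to 2812 RPKM in Bangalore blue, 699.8 RPKM in Red globe and 2514 RPKM in Dilkhush. Their part in the low PIP1 sum was not tested.

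**Figure D4:**
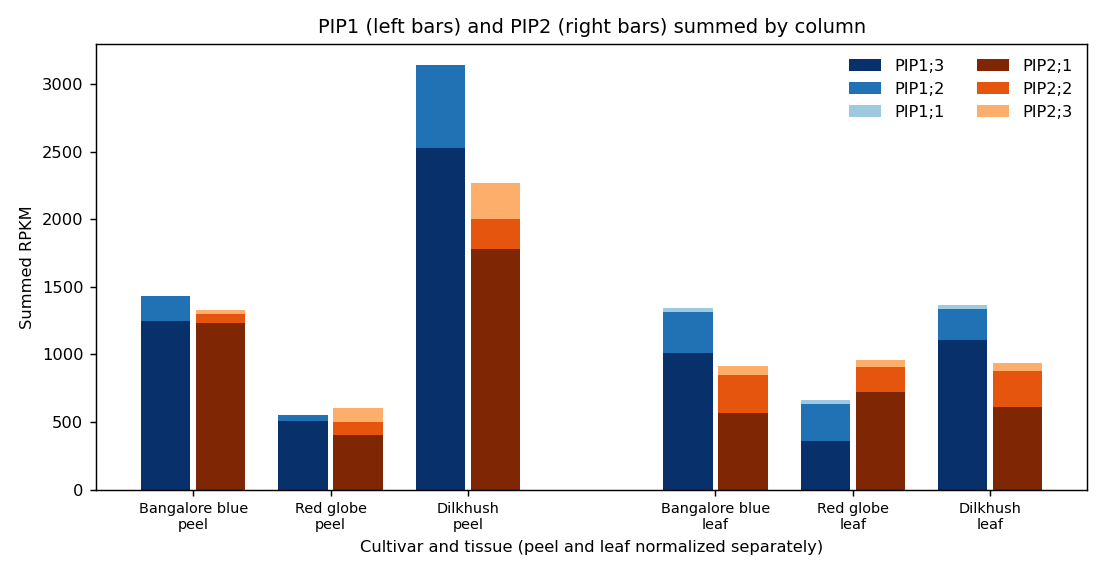
Summed RPKM of the PIP1 rows (blue, left bars) and the PIP2 rows (orange, right bars) in each cultivar and tissue, split by member. Dilkhush peel has the tallest bars of the peel columns, 3139 RPKM for PIP1 and 2271 RPKM for PIP2, and Red globe leaf is the leaf column where the PIP2 bar is taller than the PIP1 bar.

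The ratio of summed PIP1 to summed PIP2 within a column is free of column scaling and can be set across tissues. In peel the ratio was 1.07 for Bangalore blue, 0.92 for Red globe and 1.38 for Dilkhush. Leaf ratios were 1.47 for Bangalore blue, 0.70 for Red globe and 1.46 for Dilkhush. Red globe had the lowest ratio in each tissue and more PIP2 than PIP1 in both. Without the shared PIP1 row the peel ratios were 0.94 for Bangalore blue, 0.85 for Red globe and 1.11 for Dilkhush, so Bangalore blue peel also had more PIP2 than PIP1. The leaf ratios were then 1.14 for Bangalore blue, 0.41 for Red globe and 1.22 for Dilkhush, with Red globe still lowest in each tissue. Without the largest row of each subfamily the peel ratios were 1.80 for Bangalore blue, 0.21 for Red globe and 1.23 for Dilkhush. On that basis leaf gave 0.96 for Bangalore blue, 1.29 for Red globe and 0.81 for Dilkhush. The PIP1 part of these ratios was mostly the shared row, at 273 of 304 RPKM in Red globe leaf, so they carry its uncertainty. Without the largest rows Red globe was the highest in leaf, so its low ratio there rested on the most abundant members.

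Those most abundant members, PIP1;3 and PIP2;1, were closer to each other in peel than in leaf. Their ratio in peel, PIP1 row over PIP2 row, was 1.01 for Bangalore blue, 1.28 for Red globe and 1.42 for Dilkhush. In leaf it was 1.79 for Bangalore blue, 0.50 for Red globe and 1.81 for Dilkhush, so the PIP1 row was ahead in 5 of the 6 columns. All 6 rows together made up 0.37% of the RPKM outside transfer RNA for Bangalore blue, 0.16% for Red globe and 0.68% for Dilkhush peel. The corresponding leaf share was 0.27% for Bangalore blue, 0.21% for Red globe and 0.28% for Dilkhush.

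Other aquaporins were looked for by names starting with TIP, NIP, SIP or XIP, so members with no such symbol or synonym would be missed. The search gave 4 rows of the TIP group, which sits in the tonoplast, the membrane of the vacuole. They were TIP1;1, TIP1;2, TIP2;1 and LOC100252631, for which RefSeq gives the synonym TIP4. In peel 2 of the 4 were called lower in Bangalore blue than in Dilkhush, 1 was called lower in Red globe than in Dilkhush, and 1 was called higher in Bangalore blue than in Red globe. Over all rows the shares were 3.73%, 3.35% and 2.39% in those comparisons, and the TIP4 row, under 10 RPKM in all peels, could not be called there. In leaf none of the 4 was called.

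TIP1;1 was 10.1 RPKM in Bangalore blue, 6.28 RPKM in Red globe and 68.4 RPKM in Dilkhush peel, so Dilkhush was highest as for the PIP rows. Its leaf levels were 128 RPKM in Bangalore blue, 116 RPKM in Red globe and 170.4 RPKM in Dilkhush. TIP1;2 was 134 RPKM in Bangalore blue, 250.3 RPKM in Red globe and 770 RPKM in Dilkhush peel, with Bangalore blue lowest as for the minor PIP2 rows. In leaf this row was 154 RPKM in Bangalore blue, 429.8 RPKM in Red globe and 133 RPKM in Dilkhush. TIP2;1 departed from the PIP pattern in peel, with Bangalore blue highest at 876 RPKM, 159 RPKM in Red globe and 518 RPKM in Dilkhush. Leaf levels of that row were 143 RPKM in Bangalore blue, 316 RPKM in Red globe and 187 RPKM in Dilkhush. The TIP4 row also departed from the PIP pattern in peel, though under 10 RPKM in all peels. It was 6.46 RPKM in Bangalore blue, 0.09 RPKM in Red globe and 0 RPKM in Dilkhush peel, so Dilkhush was lowest. In leaf the TIP4 row was 48.2 RPKM in Bangalore blue, 43.2 RPKM in Red globe and 81.0 RPKM in Dilkhush.

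Likeness of pattern was measured as the Euclidean distance between log2(RPKM + 1) values over the 6 columns, each centred on the mean of its tissue, among 142 named rows with at least 10 RPKM in some column of each table. Summed PIP1 and summed PIP2 lay 0.98 apart on this measure. Nearest to summed PIP2 was VVSUC27, a sucrose transporter, at a distance of 0.25, with 4.85 RPKM in Bangalore blue, 2.13 RPKM in Red globe and 11.5 RPKM in Dilkhush peel. Its leaf values were 15.8 RPKM in Bangalore blue, 17.1 RPKM in Red globe and 17.1 RPKM in Dilkhush. Peel values of VVSUC27 were low, so the 1 added to RPKM narrowed its log2 range more than that of the PIP2 sum. PL1, a pectate lyase, followed at 0.49, then the MYB factor MYBCS1 at 0.57, the calcium sensor CBL06 at 0.57 and the alcohol dehydrogenase ADH3 at 0.60.

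Nearest to summed PIP1 were MYBCS1 at 0.74, VVSUC27 at 0.97, ADH3 at 1.05, the superoxide dismutase SODCP at 1.07 and the kinase CIPK08 at 1.09. MYBCS1 was 14.0 RPKM in Bangalore blue, 3.73 RPKM in Red globe and 22.9 RPKM in Dilkhush peel, with Red globe low as in the PIP1 sum. In leaf it was 59.3 RPKM in Bangalore blue, 41.7 RPKM in Red globe and 45.1 RPKM in Dilkhush. Among all 8424 rows at that level, named or not, 2 lay nearer to summed PIP2 than VVSUC27 did, and 20 lay nearer to summed PIP1 than MYBCS1 did. With 6 columns the distances describe these columns only.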

How the data were processed

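Directional (strand-keeping) mRNA libraries were built from total RNA of peel and leaf, per the labels' protocols. The submitters' processing notes name TopHat2 2.1.1 and Cufflinks 2.2.1. Neither the genome build, nor the annotation, nor the way in which libraries were merged into columns is stated. The deposited values are RPKM per the file headers, with 1 column per cultivar and tissue, tied to groups by the initials in the sample titles. Low values showed no steps of whole reads, so depth is unknown and no counting interval is given.

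Differences were taken as log2(RPKM + 1), which understates those of low rows, within a tissue, in 6 comparisons. The planned model with libraries as replicates could not be fitted. Calls were made over all rows (Python 3.11.15, pandas 2.3.3) and the calling step was tested on simulated columns. Every PIP row, the other aquaporin rows and the 5 nearest named rows were named by rule. AGA, matched through its synonym SIP1, is an alpha-galactosidase and was left out. All 6 PIP names were found in the RefSeq table. Protein and promoter sequences were not analysed here. Members, lists and rules were chosen with earlier results of these data known. Alternatives were 3 scalings, a smaller pseudocount of 0.1, dropping the floor, requiring 5 RPKM in 2 columns, and other choices of rows.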

Additional observations from a re-analysis of the deposited data

Results flagged for a closer look

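In 3 cases a PIP row was called in peel and differed in the opposite direction in leaf, with 1 column per group, so the difference between tissues was not tested. For Red globe minus Dilkhush, PIP1;2 had a log2 difference of -3.79 in peel and 0.24 in leaf. In the same comparison PIP2;1 was at -2.15 in peel and 0.23 in leaf. For Bangalore blue minus Dilkhush, PIP2;3 was at -3.07 in peel and 0.13 in leaf. The leaf values of these 3 cases are small, and none was a call. The other PIP calls in peel kept their sign in leaf. PIP1;3 was at -2.31 in peel and -1.62 in leaf for Red globe minus Dilkhush. PIP1;2 was at 2.07 in peel and 0.15 in leaf for Bangalore blue minus Red globe. The share of all called rows that changed sign in leaf was not taken, so the 3 cases do not set the PIP rows apart.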

How the results depend on the processing

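No paired analysis was possible because the columns carry no replicate numbers, and leaving out a replicate was not run for the same reason. The count of PIP rows called moved by over 1.5 times in 1 of 36 settings: with quantile normalization 1 row, not 3, was called for Red globe against Dilkhush peel, as PIP1;3 and PIP2;1 stood at -1.90. With an equal total without transfer RNA PIP2;1 was at -1.98 and 2 rows were called. That change of 1.5 times did not count as moved. All leaf counts stayed at 0, so the leaf settings say little about how steady calls are. Quantile normalization and the equal total moved the median of all rows in Red globe minus Dilkhush peel by 0.12 and 0.15. The equal total also moved it in leaf, by 0.10 for Red globe minus Dilkhush and by -0.13 for Bangalore blue minus Red globe. With a pseudocount of 0.1 the log2 difference of PIP1;1, under 10 RPKM in peel, was -2.38 for Bangalore blue and -2.21 for Red globe against Dilkhush peel. All 60 alternative values of the summed log2 differences moved by less than a 1.5-fold change in level. In leaf, where these differences are near 0, the sign of summed PIP1 for Bangalore blue minus Dilkhush (-0.02) turned to 0.04 and that of summed PIP2 for Red globe minus Dilkhush (0.03) to -0.00 with quantile normalization. The summed PIP1 value also turned positive, to 0.002, with columns scaled to equal medians. The PIP1 to PIP2 ratio moved further without the largest row of each subfamily, to 1.80 for Bangalore blue and 0.21 for Red globe peel, and to 0.96 for Bangalore blue, 1.29 for Red globe and 0.81 for Dilkhush leaf. It was 0.41 in Red globe leaf without the row of several names. Counting the unnumbered PIP2 row, a choice made after the data were seen, moved no sum or ratio by over 1.5 times. Depth is unknown, so values near 0, as for PIP1;1 in peel, cannot be given a limit.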
